A study of Mus musculus with 72 samples.

Results

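The lysosomal genes described here are 7 of the 1266 genes measured: the cathepsin genes Ctsb, Ctsd and Ctsl, the hydrolase genes Gusb and Man2b1, the sterol carrier gene Npc2 and Cd68, which encodes a glycoprotein of the lysosomal membrane of phagocytes. They were taken by name from the deposited table, all 7 were measured, and the rule used no measured value. RNA came from cortex of 36 mice aged 7.5 months, in 6 groups of 6: P522R_5xFAD, M28L_5xFAD and 5xFAD, each as females (F) and males (M). All mice, the 5xFAD mice included, carried the 5xFAD transgenes, human amyloid precursor protein and presenilin mutations driven by a neuronal promoter that lead to amyloid plaques. P522R and M28L are variants of Plcg2, a phospholipase of immune cells that lies downstream of the microglial receptor TREM2, and are associated in people with lower and higher risk of Alzheimer's disease. The sources used here do not say how many variant alleles a mouse carried, and mice without the transgenes were not analysed here.

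Lysosomes are acidic compartments in which proteins, sugars and lipids taken up or recycled by a cell are broken down. Cathepsins B and L are cysteine proteases and cathepsin D is an aspartic protease. Beta-glucuronidase (Gusb) and alpha-mannosidase (Man2b1) cut sugar chains, and NPC2 hands cholesterol to the membrane protein NPC1 for export. Microglia, the phagocytes of the brain, carry many lysosomes and take up amyloid, and CD68 staining is widely used to see phagocytic microglia, although other brain cells contain cathepsins and hydrolases as well.

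On mouse build GRCm38.p6 the genes lie on 7 chromosomes: Ctsb at chr14:63122462-63145923, Ctsd at chr7:142375910-142387827, Ctsl at chr13:64361890-64370772, Cd68 at chr11:69664213-69666170, Gusb at chr5:129989011-130003049, Man2b1 at chr8:85082730-85098739 and Npc2 at chr12:84754559-84773112. RefSeq promoter windows of 300 bases, with 250 before the start and 50 after it, were found for 6 of the 7. They were searched on both strands for the CLEAR core TCACGTGA, which TFEB, a regulator of lysosomal genes, recognises, for the E-box CACGTG that this core contains, and for GAGGAAG, a core bound by PU.1, a factor of myeloid cells. Ctsd alone held the CLEAR core, which 320 of all 32851 windows held (0.974%). Ctsd and Ctsl held the E-box (7.15% of all windows), Gusb and Man2b1 held the PU.1 core (13.6%), and in the windows of Cd68 and Npc2 these letters did not occur. The windows of Ctsl (chr13:64370471-64370770) and Man2b1 (chr8:85083019-85083318) lie within the gene positions above, so their motifs are not upstream of those gene ends. Shown are the promoters of Ctsd and Gusb, which fell together in M28L mice and hold different motifs. The Ctsd window spans chr7:142387778-142388077 on the minus strand, with the E-box and the CLEAR core in capitals, and the Gusb window spans chr5:130003000-130003299 on the minus strand, with the PU.1 core, here read on the other strand, in capitals.
Ctsd: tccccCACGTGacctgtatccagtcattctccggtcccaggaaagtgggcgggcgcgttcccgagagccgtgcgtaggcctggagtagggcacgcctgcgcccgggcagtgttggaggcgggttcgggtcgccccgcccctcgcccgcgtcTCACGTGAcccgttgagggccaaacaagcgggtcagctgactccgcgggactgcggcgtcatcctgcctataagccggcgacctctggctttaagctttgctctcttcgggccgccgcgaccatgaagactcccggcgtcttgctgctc
Gusb: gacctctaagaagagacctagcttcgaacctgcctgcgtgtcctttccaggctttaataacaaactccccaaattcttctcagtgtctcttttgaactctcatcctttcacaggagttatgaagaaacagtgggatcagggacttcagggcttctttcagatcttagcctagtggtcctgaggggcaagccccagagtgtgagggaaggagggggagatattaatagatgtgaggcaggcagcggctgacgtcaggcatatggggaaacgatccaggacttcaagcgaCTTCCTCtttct
A match in these windows is a description of letters.

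NanoString counts barcoded probes hybridised to each transcript, so a level depends on the probe as well as on the RNA, and levels of different genes are not compared below. Levels are deposited log2 values, and a difference of 1 on this scale is a doubling. The table joined 2 panels, of 757 genes (Ctsb, Ctsd, Ctsl and Cd68 among them) and of 509 genes (Gusb, Man2b1 and Npc2), and recovered counts totalled 237563 to 1957325 per mouse and panel. Depth differed between groups. Median totals of M28L, 5xFAD and P522R females were 277909.5, 319585.5 and 592158.5 in the smaller panel and 1104030.5, 1137287 and 1802004.5 in the larger. In males, in the same order, they were 630333.5, 593007.5 and 575259.5, and 1665496.5, 1630026 and 1695631.5. The part of depth in the results was not tested. Npc2 had 30 to 126 counts per mouse, Gusb 93 to 482, and each of the other members at least 220. P522R mice stood apart from 5xFAD mice in 65.4% of all genes, and females from males in 86.4%, with a median over all genes of -0.38 (F minus M). The labels name no run or scan, so a genotype or sex and the run in which it was measured cannot be told apart. All 12 measured markers of microglia lay above a log2 level of 5, the level below which genes are called near the floor here, while both markers of perivascular and blood myeloid cells and 5 of 6 lymphocyte markers were near it. In bulk cortex, fewer cells of a type and less RNA per cell cannot be told apart.

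M28L mice had less RNA of 5 of the 7 genes than 5xFAD mice. Cd68 was 1.46-fold lower, Gusb 1.39-fold, Ctsd 1.32-fold, Ctsl 1.22-fold and Man2b1 1.20-fold, with differences averaged over the sexes. Ctsb and Npc2 did not pass the test, an adjusted p of 0.05 in limma after Benjamini-Hochberg over all 1266 genes, and 0 of the 7 rose. Among all genes 10.3% passed, 5.61% lower and 4.66% higher, and the median difference over all genes was 0.00, against a median of -0.29 over the 7. All 7 were tested without a filter on low values. Overlap of groups and mice on 1 side of a mean, given below, were counted for the 7 genes only. The share of all genes with such a separation was not counted, so these counts are description in every comparison.

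Cd68 had the largest fall among the 7. Its lowest, median and highest levels were 8.68, 9.04 and 9.37 in M28L females and 9.38, 9.61 and 9.74 in 5xFAD females, and 8.72, 8.89 and 9.34 in M28L males and 9.22, 9.47 and 9.82 in 5xFAD males. In females the genotypes did not overlap, in males they did, and all 12 M28L mice lay below the 5xFAD mean of their sex. The difference was -0.54 ± 0.11 (SE; 95% interval -0.77 to -0.32; limma adjusted p = 0.00086). Cd68 and Gusb passed under all 15 alternatives and without any single mouse. Gusb, often used as a housekeeping gene, showed the same arrangement, with 7.27, 7.46 and 7.64 in M28L females and 7.82, 8.04 and 8.20 in 5xFAD females, and 7.63, 7.78 and 8.12 in M28L males and 8.04, 8.16 and 8.42 in 5xFAD males. The females were again separate and all 12 M28L mice were below the 5xFAD mean of their sex, with a difference of -0.47 ± 0.09 (SE; limma adjusted p = 0.000554).

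Of the proteases, Ctsd lay at 13.53, 13.82 and 13.89 in M28L females and 14.14, 14.29 and 14.50 in 5xFAD females, and at 13.35, 13.67 and 13.98 in M28L males and 13.78, 13.89 and 14.21 in 5xFAD males. The females did not overlap, the males did, and 11 of 12 M28L mice were below the 5xFAD mean of their sex. The difference was -0.40 ± 0.10 (SE; limma adjusted p = 0.00483). Ctsl lay at 8.93, 9.07 and 9.26 in M28L females and 9.21, 9.40 and 9.55 in 5xFAD females, and at 8.70, 8.89 and 9.02 in M28L males and 8.98, 9.11 and 9.38 in 5xFAD males. The genotypes overlapped in both sexes, yet all 12 M28L mice were below the 5xFAD mean of their sex, and the difference was -0.29 ± 0.07 (SE; limma adjusted p = 0.00487). Ctsb differed by -0.15 ± 0.06 (SE; 95% interval -0.26 to -0.04), lower in 11 of 12 mice, and did not pass (limma adjusted p = 0.0751). Its males did not overlap, with 12.30 the highest level in M28L and 12.32 the lowest in 5xFAD males, while its females did. Ctsb passed with each mouse's median subtracted (-0.16, adjusted p = 0.027 in limma), with quantile normalization (-0.15, adjusted p = 0.0333) and without M28L female 14_F8 or 5xFAD female 1180.

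Man2b1 lay at 8.66, 9.12 and 9.36 in M28L females and 9.22, 9.44 and 9.48 in 5xFAD females, and at 9.45, 9.64 and 9.81 in M28L males and 9.49, 9.82 and 10.05 in 5xFAD males. The genotypes overlapped in both sexes and all 12 M28L mice were below the 5xFAD mean of their sex, with a difference of -0.26 ± 0.08 (SE; limma adjusted p = 0.0295). That call ended when any of 7 single mice was left out (M28L females 20 and 28, M28L males 9 and 11, 5xFAD female 1248, 5xFAD males 1177 and 1268; adjusted p up to 0.0589 in limma), in a fit that ignored sex (adjusted p = 0.391) and when only M28L mice with an index of 7 to 9, a number in the column names, were kept (-0.17, adjusted p = 0.29). Ctsd also lost its call with index 7 to 9 (-0.36, adjusted p = 0.0729 in limma) and Ctsl with index 1 to 3 (-0.24, adjusted p = 0.106), each with 6 M28L mice in place of 12. Npc2 differed by 0.12 ± 0.10 (SE; 95% interval -0.08 to 0.33; limma adjusted p = 0.499), with 8 of 12 M28L mice above the 5xFAD mean of their sex.

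**Figure D1:**
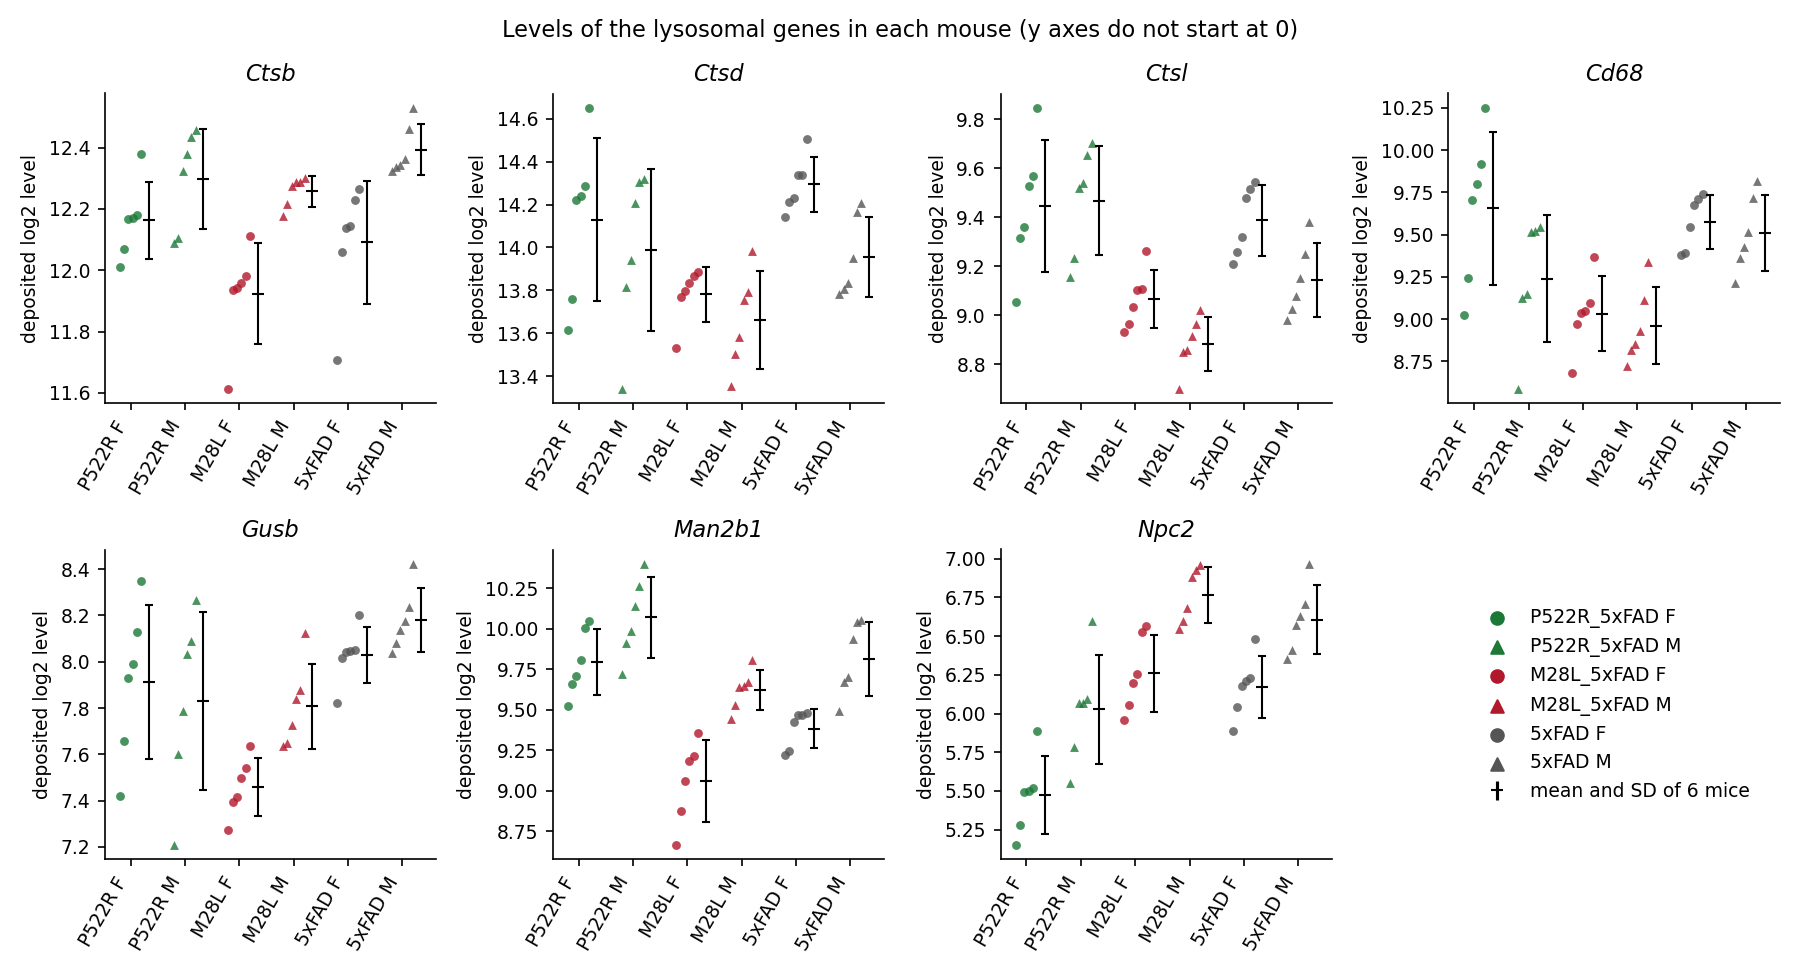
Deposited log2 level (y axis, not from 0) of each of the 7 genes in each mouse, by genotype and sex (x axis); points are mice, and bars give the mean and SD of 6 mice. In M28L females the Cd68, Gusb and Ctsd points lie below all 5xFAD females, and the P522R points of Ctsd, Cd68 and Gusb are the most widely spread. The share of all genes separated in this way was not counted.

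Of the other lysosomal genes 6 were called between M28L and 5xFAD mice, set beside 10.3% of all genes. Of 7 measured proteases and inhibitors 2 fell and 0 rose (median -0.17): Cst7, a cystatin that inhibits cathepsins, by 0.97 and Lgmn, an asparaginyl protease that processes cathepsins, by 0.17 on the log2 scale, while Ctss, a microglial cathepsin, differed by -0.27 (adjusted p = 0.000125, 0.0426 and 0.124 in limma). Of 9 hydrolases and cofactors 2 fell and 0 rose (median -0.07). Lyz2, a macrophage lysozyme, was at -0.52 (limma adjusted p = 0.00688), whereas Naglu, which degrades heparan sulfate, was at -0.22 and not called (adjusted p = 0.0546 in limma). Of 21 membrane and transport genes 1 fell and 1 rose (median -0.01): Gpnmb, a glycoprotein of phagocyte lysosomes, was at -1.35 and the proton pump subunit gene Atp6v0e at 0.26, with progranulin (Grn) at -0.29 and not called (limma adjusted p = 4.91e-06, 0.0231 and 0.0602). Gnptab and Gnptg, which tag hydrolases for the lysosome, were at 0.05 and 0.02, and neither passed.

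Markers of several cell types moved with these falls in part. Of the 12 microglia markers 2 fell (with Cx3cr1 at -0.42), 1 rose (Tmem119 at 0.38), and the median was -0.15. Their summed level, on the linear scale, ran from 8353 to 10178 in M28L females and from 9972 to 13372 in 5xFAD females, and from 7798 to 11045 in M28L males and from 9280 to 12054 in 5xFAD males. Of 6 astrocyte markers 1 fell, Gfap at -0.38, and of 3 endothelial markers 1 fell, Cldn5 at -0.55 (limma adjusted p = 0.033 and 4.03e-05), with list medians of -0.07 and -0.27. None of the markers of neurons (7), oligodendrocytes (6), their precursors (3), lymphocytes (6) or perivascular and blood myeloid cells (2) was called. The part of these markers in the results was not tested.

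P522R mice showed no common direction of the 7 genes against 5xFAD mice: Man2b1 (1.26-fold) and Ctsl (1.142-fold) were higher, Npc2 (1.56-fold) and Gusb (1.18-fold) were lower, and Ctsb, Ctsd and Cd68 did not pass. With 65.4% of all genes called in this comparison, 40.5% higher and 24.9% lower, the 4 of 7 is near the background and is no result about these genes as a group. The median over all genes was 0.08 and that over the 7 was -0.07. The comparison shares its 5xFAD mice with that of M28L mice.

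Npc2, the sterol carrier, had the largest difference. Its lowest, median and highest levels were 5.15, 5.50 and 5.89 in P522R females and 5.89, 6.19 and 6.48 in 5xFAD females, and 5.55, 6.07 and 6.595 in P522R males and 6.35, 6.602 and 6.97 in 5xFAD males. The ranges overlapped in both sexes, and all 12 P522R mice lay below the 5xFAD mean of their sex. Median recovered counts of Npc2 were 55.5 in P522R and 53.5 in 5xFAD females, and 60 and 87 in P522R and 5xFAD males. In females the fall is thus one of the deposited scale and not of counts, with larger total counts in P522R females. The part of depth and scaling in it was not tested. The difference was -0.64 ± 0.10 (SE; 95% interval -0.84 to -0.44; limma adjusted p = 1.02e-06), and over 12 alternative settings it lay between -0.86 and -0.49. Npc1, the membrane partner that receives cholesterol from NPC2, was higher by 0.46 (limma adjusted p = 1.4e-06).

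Man2b1 lay at 9.52, 9.76 and 10.05 in P522R females and 9.22, 9.44 and 9.48 in 5xFAD females, and at 9.72, 10.06 and 10.40 in P522R males and 9.49, 9.82 and 10.05 in 5xFAD males. Females of the genotypes did not overlap, males did, and 11 of 12 P522R mice were above the 5xFAD mean of their sex, with a difference of 0.33 ± 0.08 (SE; limma adjusted p = 0.000401). Centring on the housekeeping genes Tbp and Pgk1, which moved the median of all genes by -0.22 in this comparison, took Man2b1 to 0.11 and ended its call (adjusted p = 0.211 in limma). Ctsl lay at 9.05, 9.44 and 9.85 in P522R females and 9.21, 9.40 and 9.55 in 5xFAD females, and at 9.157, 9.53 and 9.70 in P522R males and 8.98, 9.11 and 9.38 in 5xFAD males. It was above the 5xFAD mean in 6 of 6 males and 3 of 6 females, and the difference of 0.19 ± 0.07 (SE; limma adjusted p = 0.0173) turned to -0.03 with housekeeping centring and was not called with each panel centred on its own median (0.14, adjusted p = 0.0622) or without a sex term (adjusted p = 0.0551).

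Gusb lay at 7.42, 7.96 and 8.35 in P522R females and 7.82, 8.04 and 8.20 in 5xFAD females, and at 7.21, 7.91 and 8.27 in P522R males and 8.04, 8.16 and 8.42 in 5xFAD males. The genotypes overlapped in both sexes and 9 of 12 P522R mice were below the 5xFAD mean of their sex, with a difference of -0.23 ± 0.09 (SE; limma adjusted p = 0.0272). Panel-wise centring took it to -0.10 (adjusted p = 0.304 in limma). It was no longer called without a sex term (adjusted p = 0.0661 in limma), or without any of P522R females 8 and 60, P522R males 23 and 27 and 5xFAD male 1268 (adjusted p up to 0.071). Ctsb, Ctsd and Cd68 differed by -0.01 ± 0.06, -0.07 ± 0.10 and -0.09 ± 0.11 (SE), with 95% intervals of -0.12 to 0.10, -0.26 to 0.13 and -0.32 to 0.13. With housekeeping centring these 3 were called lower, at -0.23, -0.28 and -0.31 (limma adjusted p = 0.00174, 0.00484 and 0.00864), and 5 of the 7 were then lower and 0 higher, where 767 of the 1266 genes were called.

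The other lysosomal genes were likewise divided in P522R mice, and their counts are to be read beside the 65.4% of all genes called. Of the 7 proteases and inhibitors 3 were higher, namely Lgmn at 0.15, Ctsf, a cysteine cathepsin, at 0.15 and Ctse, an aspartic cathepsin, at 0.59 (limma adjusted p = 0.0136, 0.0244 and 0.041), and 0 were lower. Of the 9 hydrolases 2 were higher and 3 lower. Gaa, which degrades glycogen, was higher by 0.64, while Arsa, a sulfatase, was at -0.42 and Naglu at -0.47 (limma adjusted p = 2.08e-08, 1.51e-07 and 1.44e-06). Of the 21 membrane and transport genes 7 were higher and 5 lower, and subunits of the proton pump went both ways, with Atp6v1h at -0.56, Atp6v1e1 at -0.47 and Atp6v1a at 0.40 (limma adjusted p = 3.16e-10, 3.81e-10 and 1.67e-07). Gnptg and Gnptab, at -0.08 and 0.05, were not called. Of the microglia markers 2 were higher and 4 lower (median -0.06), with Aif1 at -0.80 and Tmem119 at 0.48. Their summed level ran from 8269 to 16522 in P522R females and from 7850 to 12920 in P522R males, around the 5xFAD ranges given above. Markers of other cells moved as well: 5 of 7 neuronal markers were higher and 1 lower, 4 of 6 astrocyte markers higher and 1 lower, 3 of 3 markers of oligodendrocyte precursors higher (median 0.61), 2 of 6 oligodendrocyte markers higher and 1 lower, 2 of 3 endothelial markers lower, 4 of 6 lymphocyte markers higher and 1 of 2 perivascular and blood myeloid markers higher. The part of these markers in the results was not tested.

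**Figure D2:**
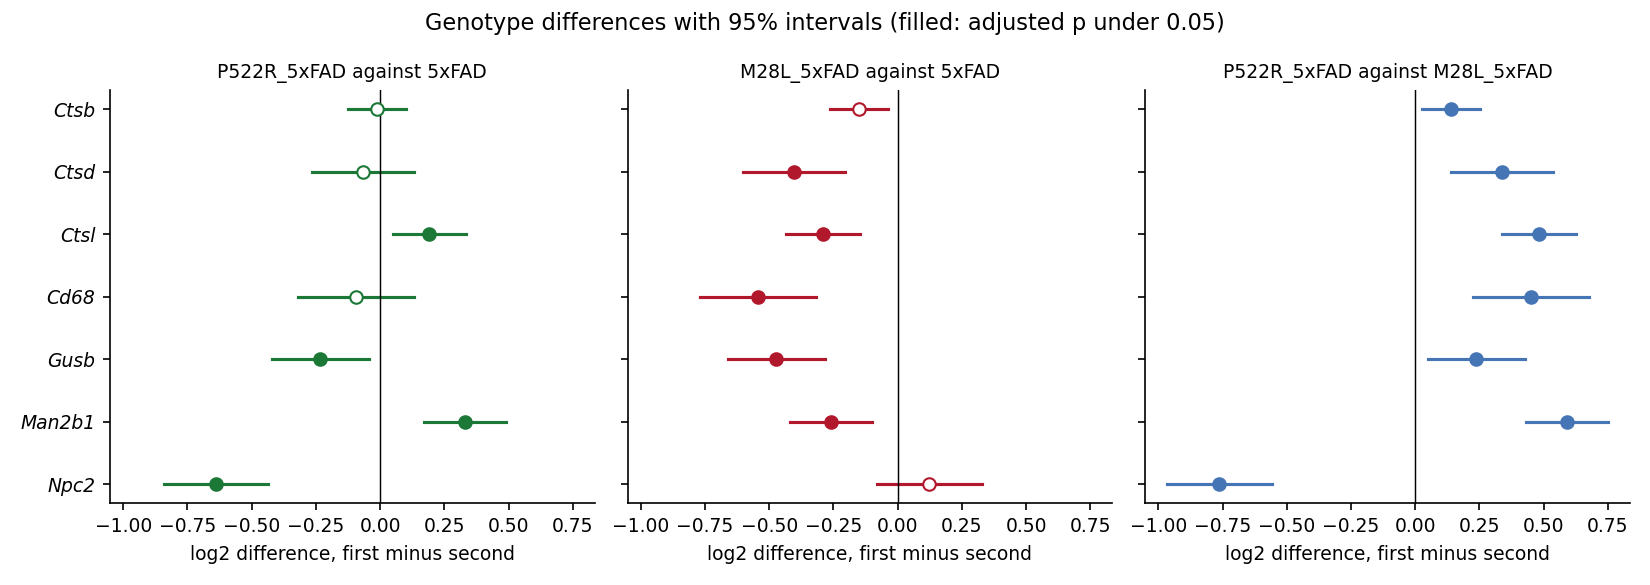
Difference of log2 level (x axis) for the 7 genes (rows) in 3 genotype comparisons, averaged over the sexes; lines are 95% intervals and filled points passed an adjusted p of 0.05 in limma. The M28L points lie at or below -0.15 except Npc2 at 0.12, and against M28L the P522R points lie above 0 except Npc2 at -0.76.

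Between the variants all 7 genes were called: 6 were higher in P522R than in M28L mice, and Npc2 was lower. The share of all genes called was 67.6%, with 41.5% higher and 26.1% lower, and the median difference was 0.10 over all genes and 0.34 over the 7. Man2b1 was 1.51-fold higher (0.59 ± 0.08, SE; limma adjusted p = 3.79e-08; 12 of 12 P522R mice above the M28L mean of their sex) and its females did not overlap. Ctsl was 1.40-fold higher (0.48 ± 0.07, SE; limma adjusted p = 2.18e-07; 11 of 12 mice), with no overlap in males. Cd68 was 1.37-fold higher (0.45 ± 0.11, SE; limma adjusted p = 0.000594; 10 of 12 mice), with overlap in both sexes. These 3 and Npc2 kept their call under all 11 alternative settings. The calls of Ctsd (0.34 ± 0.10, SE), Gusb (0.24 ± 0.09, SE) and Ctsb (0.14 ± 0.06, SE), with limma adjusted p of 0.00281, 0.0229 and 0.0259, ended with housekeeping centring, at 0.16, 0.06 and -0.04. That centring moved the median of all genes by -0.18. Gusb also lost its call without P522R female 24 or male 29 (adjusted p up to 0.056 in limma), and Ctsb without M28L female 12, P522R female 24, or P522R males 29 or 31 (adjusted p up to 0.0642). Ctsb was moreover not called with panel-wise centring (0.03), and Ctsd not with quantile normalization (0.14).

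Npc2 was 1.70-fold lower in P522R than in M28L mice (-0.76 ± 0.10, SE; limma adjusted p = 3.16e-08). All 12 P522R mice lay below the M28L mean of their sex, and the females did not overlap. Median recovered counts of Npc2 were 55.5 in P522R and 45.5 in M28L females, so in females the counts themselves were not lower. In males they were 60 and 106.5. The comparison shares its M28L and P522R mice with the comparisons above. Of the other lysosomal genes, 4 proteases and inhibitors were higher and 1 lower of 7, with Lgmn at 0.32, Cst7 at 0.90 and Cst3, the secreted cystatin C, at -0.27 (limma adjusted p = 3.22e-06, 1.47e-05 and 0.000797). Among 9 hydrolases 5 were higher and 2 lower, with Gaa at 0.66 and Arsa at -0.44 (limma adjusted p = 9.13e-09 and 7.39e-08). Among 21 membrane and transport genes 7 were higher and 7 lower, with Gpnmb 4.34-fold higher, Atp6v1h at -0.57 and Atp6v1e1 at -0.48 (limma adjusted p = 7.5e-12, 1.66e-10 and 1.68e-10). Gnptg and Gnptab were not called (-0.10 and 0.00). Of the microglia markers 3 were higher and 1 lower (median 0.02). Of 7 neuronal markers 6 were higher and 1 lower, of 6 astrocyte markers 5 higher and 1 lower, of 6 oligodendrocyte markers 3 higher and 1 lower, and higher alone were 3 of 3 precursor, 1 of 3 endothelial, 5 of 6 lymphocyte and 1 of 2 perivascular and blood myeloid markers. All these counts stand beside the 67.6% of all genes called, and the part of the markers in the results was not tested.

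Within a sex each comparison rests on 6 mice a group. In M28L against 5xFAD females 3 of the 7 were called lower, Gusb (-0.57), Ctsd (-0.51) and Cd68 (-0.54), with limma adjusted p of 0.00969, 0.0301 and 0.0424, where 3.87% of all genes were called and 1.97% called lower. Entering the females numbered 14 as their mean ended the Cd68 call (-0.54, adjusted p = 0.0703 in limma), and so did leaving out any of 8 single mice, namely M28L females 14_F1, 14_F8, 20 and 28 and 5xFAD females 1189, 1190, 1248 and 1249 (adjusted p up to 0.108). The Ctsd call ended in 5 of 36 such fits (adjusted p up to 0.076 in limma). All 3 calls ended when each group was weighted by a variance taken over all genes (adjusted p = 0.104, 0.201 and 0.236 in limma). Such a weight is the same for every gene and does not follow the spread of a single gene. The 3 calls also ended when only M28L mice with an index of 7 to 9 were kept. With the index number as a replicate block they ended too (adjusted p = 0.0547, 0.0627 and 0.0542 in limma for Gusb, Ctsd and Cd68). Ctsd was not called with index 1 to 3 only (adjusted p = 0.0504 in limma). Cd68 was not called with panel-wise centring or with eBayes without trend (adjusted p = 0.0538 and 0.0588 in limma). In males 0 were called (2.05% of all genes), with Cd68 at -0.55 (limma adjusted p = 0.0578), Gusb at -0.37 and Ctsd at -0.30. With the same group weights, Cd68, Gusb and Ctsl were called lower in males (adjusted p = 0.00172, 0.0131 and 0.0204 in limma). Cd68 in males was also called with median centring, quantile normalization, housekeeping centring and without the P522R mice (adjusted p = 0.0344, 0.0347, 0.0178 and 0.0032 in limma), and Gusb with panel-wise centring, housekeeping centring and without the P522R mice (adjusted p = 0.0325, 0.0476 and 0.00921). The Cd68 differences of the sexes were nearly equal, and the interaction of M28L with sex was 0.00 ± 0.22 (SE). No member passed that interaction test, and neither did any of the 1266 genes in limma (0%), of which 34 had an unadjusted p under 0.05. The interactions of Ctsd and Gusb (female minus male effect) were -0.22 ± 0.20 and -0.20 ± 0.19 (SE), and neither passed.

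In P522R against 5xFAD mice, Npc2 was called lower in both sexes on the deposited scale, at -0.70 in females and -0.58 in males (limma adjusted p = 9.43e-05 and 0.00086). Its median recovered count was lower in P522R males and not in P522R females. Man2b1 was called in females (0.41, adjusted p = 0.00218 in limma) and not in males (0.26, adjusted p = 0.0531). In males it was called with median, panel-wise and quantile scaling (0.28, 0.43 and 0.33), with a pseudocount of 20, with the group weights and in 9 of 36 fits without a mouse. Ctsl (0.32, adjusted p = 0.00673 in limma) and Gusb (-0.35, adjusted p = 0.0255) were called in males and not in females (0.06 and -0.12). The Gusb call in males ended with panel-wise centring (-0.18, adjusted p = 0.236 in limma) and in 3 of 36 fits without a mouse. In males, housekeeping centring turned Ctsl to -0.02 and Ctsd, at 0.03 as deposited, to -0.31. The shares of all genes called were 60.2% in females and 50.6% in males. The difference between the sexes was itself tested and 0 of the 7 passed, with 20.9% of all genes called. Ctsl, at -0.27 ± 0.14 (SE; female minus male effect), had the smallest adjusted p (0.189 in limma) and passed with each mouse's median subtracted (-0.39, adjusted p = 0.0267). With housekeeping centring Ctsb, Cd68, Gusb and Man2b1 passed (0.41, 0.60, 0.48 and 0.40), a centring that shifted the median over all genes by 0.25 in that test. Of all 1266 genes 533 passed with housekeeping centring, and 258 with each mouse's median subtracted. Between P522R and M28L mice, all 7 were called in females (61% of all genes) and Ctsd, Ctsl, Man2b1 and Npc2 in males (50% of all genes), with Npc2 at -0.79 and -0.74 and Man2b1 at 0.73 and 0.45 in females and males. Ctsd lost its call in both sexes with panel-wise centring (0.22 in females, 0.24 in males) and in 4 and 13 of 36 fits without a mouse in females and males. Man2b1 in males fell short with housekeeping centring (0.15, adjusted p = 0.285 in limma), and Ctsb in females did so with panel-wise centring (0.11) and housekeeping centring (0.18).

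The difference between females and males depended on the scale. On the deposited values Ctsd (0.20 ± 0.08, SE) and Ctsl (0.13 ± 0.06, SE) were higher in females, and Npc2 (-0.50 ± 0.08, SE), Man2b1 (-0.42 ± 0.06, SE) and Ctsb (-0.26 ± 0.05, SE) were lower (limma adjusted p = 0.0205, 0.0291, 9.98e-07, 2.03e-07 and 3.49e-06). Cd68 at 0.18 ± 0.09 and Gusb at -0.14 ± 0.08 (SE) did not pass. Of all genes 86.4% were called, 2.69% higher and 83.7% lower in females, so that 5 of 7 called is no excess while the 2 higher genes, Ctsd and Ctsl, stand among few. The median over all genes was -0.38, at -0.28 in the larger and -0.50 in the smaller panel. With each mouse's median subtracted, 4 of the 7 were higher in females and 0 lower, where 730 of the 1266 genes were called: Ctsd at 0.53, Cd68 at 0.51, Ctsl at 0.46 and Gusb at 0.19 (limma adjusted p = 1.59e-07, 3.31e-06, 4.48e-09 and 0.021). The Ctsl call on the deposited values ended without P522R female 24 or P522R males 23 or 27 (adjusted p up to 0.0597 in limma). Ctsd, Ctsl and Cd68 were higher in females, relative to the other genes, under each of the 4 other scalings, with values between 0.39 and 0.53. Ctsb turned from lower to between 0.00 and 0.07, and Gusb to between 0.16 and 0.33. Man2b1 lost its call under each of these scalings, turning to 0.05 when panels were centred separately, and Npc2 kept a call, at -0.20, with housekeeping centring alone (limma adjusted p = 0.0403). Of the other lysosomal genes, on the deposited values, 2 of 7 proteases and inhibitors were higher in females and 2 lower, 1 of 9 hydrolases higher and 6 lower, 1 of 21 membrane and transport genes higher and 17 lower, and Gnptg and Gnptab lower. Cst7 at 0.63 and Ctss at 0.27 were higher, and Gaa at -0.71 was lower (limma adjusted p = 6.95e-05, 0.00677 and 4.76e-12). Of the microglia markers 3 were higher and 3 lower. Of astrocyte markers 1 was higher and 3 of 6 lower, and lower alone were 7 of 7 neuronal, 4 of 6 oligodendrocyte, 3 of 3 precursor, 3 of 3 endothelial, 5 of 6 lymphocyte and 2 of 2 perivascular and blood myeloid markers, beside the same 86.4% of all genes. The part of these markers was not tested.

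**Figure D3:**
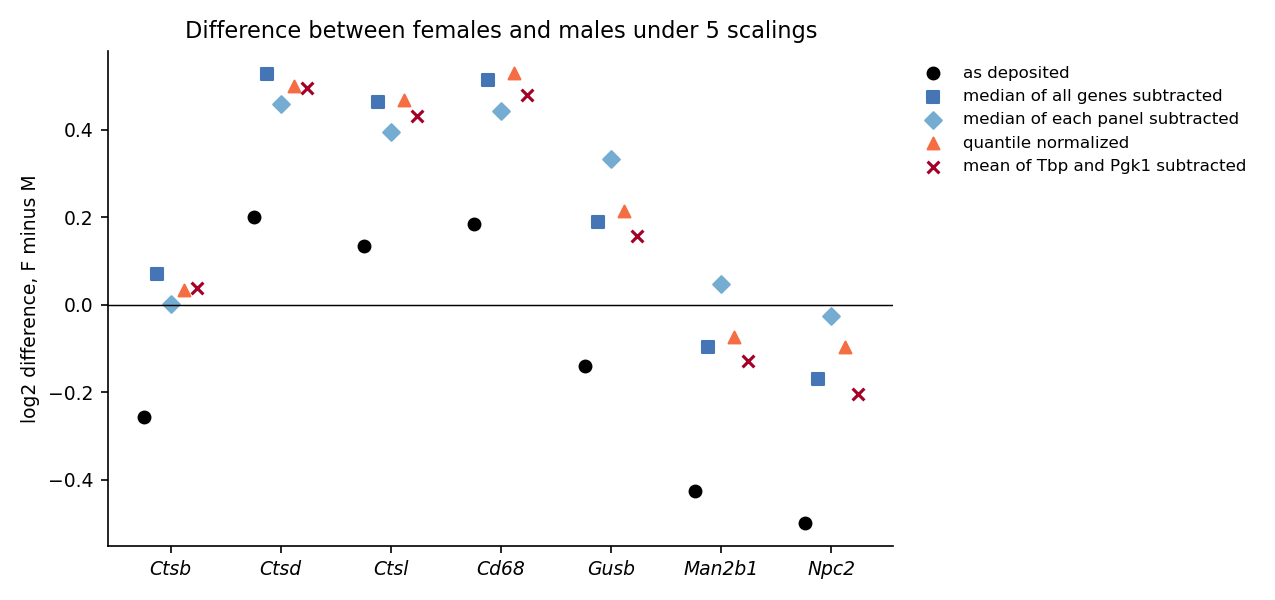
Female minus male difference of log2 level (y axis), averaged over the 3 genotypes, for the 7 genes (x axis) under 5 scalings (symbols). Ctsd, Ctsl and Cd68 lie above 0 under each scaling, Ctsb and Gusb lie below 0 only as deposited, and Npc2 lies below 0 throughout, from -0.50 as deposited to -0.03 with panels centred separately.

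On the deposited scale the order of the 6 groups differed from gene to gene. Neighbours whose means lay closer than their pooled SD were not told apart. M28L mice of either sex had the lowest 2 means for Ctsd (13.66 ± 0.23 in males, 13.78 ± 0.13 in females; SD, n = 6 each), Ctsl (8.88 ± 0.11 in males, 9.07 ± 0.12 in females), Cd68 (8.96 ± 0.23 in males, 9.03 ± 0.22 in females) and Gusb (7.46 ± 0.13 in females, 7.81 ± 0.18 in males). Of these 4 genes, Ctsd alone had the next group up further from the upper M28L group than their spread. The highest means were those of 5xFAD females for Ctsd (14.29 ± 0.13), P522R males for Ctsl (9.47 ± 0.22) and for Man2b1 (10.07 ± 0.25), P522R females for Cd68 (9.66 ± 0.45), and 5xFAD males for Gusb (8.18 ± 0.14) and for Ctsb (12.39 ± 0.08). Of these top groups, those for Man2b1 and Gusb stood further from the next than their spread, and those for Ctsd, Ctsl, Cd68 and Ctsb did not. For Cd68 and Ctsb no neighbouring pair of groups was further apart than its spread. Npc2 ran the other way, with P522R females lowest (5.47 ± 0.25), then P522R males (6.03 ± 0.35), and M28L males highest (6.76 ± 0.18).

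P522R mice varied more among themselves in most of these genes. The SD within sex was 0.41 for Cd68 in P522R mice, 0.22 in M28L mice and 0.20 in 5xFAD mice, 0.38, 0.18 and 0.16 for Ctsd, and 0.36, 0.16 and 0.13 for Gusb in the same order. Ctsl and Npc2 were also most variable in P522R mice (0.25 and 0.31), Man2b1 slightly so (0.23, 0.20 and 0.18), and Ctsb was not (0.15, 0.12 and 0.15). Over genes with a mean log2 level of 5 or more the median SD was 0.156 in P522R, 0.157 in M28L and 0.124 in 5xFAD mice. The difference in spread was not tested. An alternative chosen after seeing the data weighted each group by a variance taken over all genes. It changed no call of a member in the 3 genotype comparisons averaged over the sexes. These weights are the same for every gene, so they do not take up a wider spread of these genes alone.

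**Figure D4:**
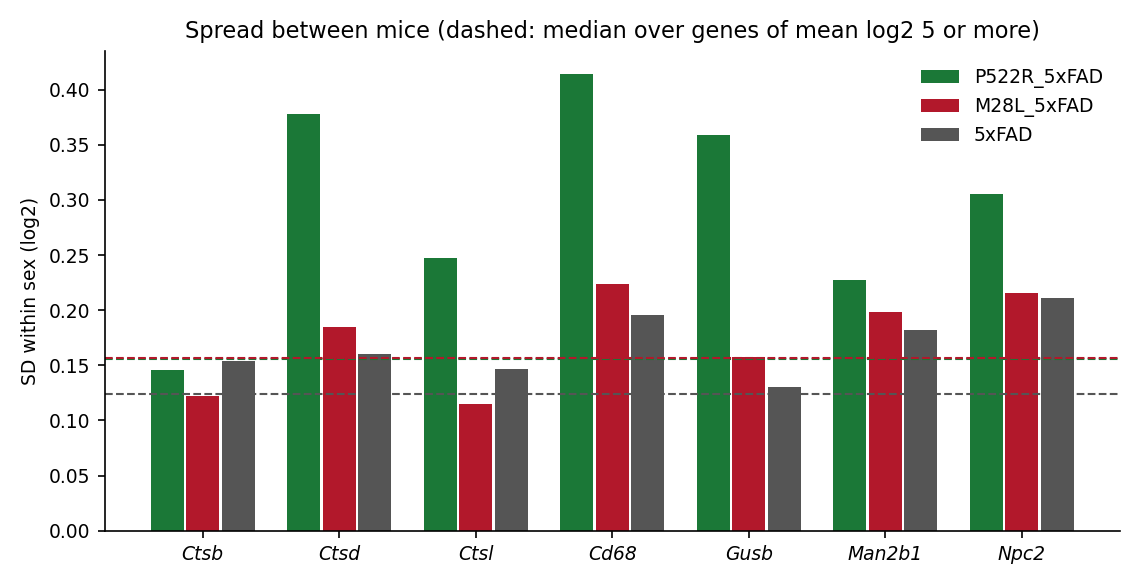
SD of the log2 level between mice within a sex (y axis, pooled over the sexes, 12 mice a genotype) for the 7 genes (x axis), as bars by genotype; dashed lines give the median SD over genes of mean log2 level 5 or more. The P522R bars of Cd68, Ctsd and Gusb, at 0.41, 0.38 and 0.36, are the tallest.

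The spread in P522R mice ran together through 6 of the genes, with r of 0.82 to 0.99 between them over the 12 mice, while Npc2 had an r of -0.05 to 0.42 with each. Between the same 6 genes r ran from -0.31 to 0.89 in M28L mice and from -0.22 to 0.92 in 5xFAD mice. Cd68 lay at 9.02 in P522R female 60 and at 10.25 in female 24, and at 8.59 in male 27 and 9.55 in male 30. Ctsd lay at 13.62 and 14.65 in the same females and at 13.34 and 14.30 in the same males. Female 60 and male 27 were below the mean of their group for all 7 genes, by 0.38 and 0.43 on average, and female 24 was above it for all 7, by 0.35, as were female 49 and males 29 and 30, by 0.05 to 0.26. Mice on one side of their group mean for all 7 occurred in the other genotypes as well: M28L male 17, 5xFAD female 1248 and 5xFAD male 1268 were above (0.12, 0.11 and 0.22), and 5xFAD males 1182, 1269 and 1270 below (-0.09, -0.20 and -0.11). The microglia markers of the P522R mice deviated alike, by -0.40 and -0.38 in female 60 and male 27 and by 0.38 in female 24, while the median of all genes deviated by -0.02, -0.04 and 0.07. The part of these markers in the spread was not tested.

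**Figure D5:**
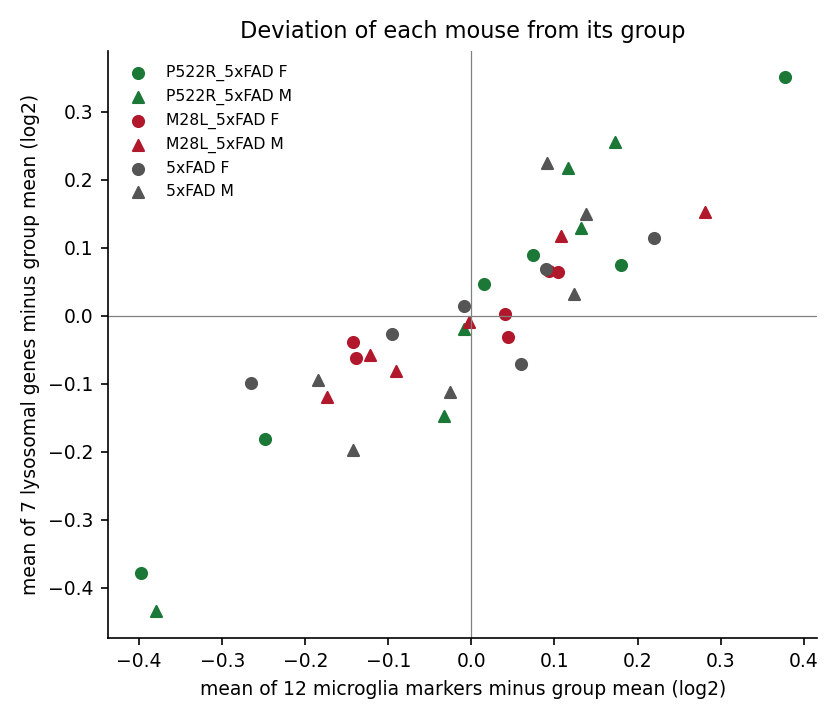
Mean deviation of the 7 lysosomal genes (y axis) and of 12 microglia markers (x axis) from the group mean, in log2 units, for each of the 36 mice, by genotype and sex. Both deviations are low in P522R female 60 (-0.38 and -0.40) and male 27 (-0.43 and -0.38) and high in female 24 (0.35 and 0.38).

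With the group means removed, Ctsd and Cd68 followed each other most closely over the 36 mice (Pearson r = 0.95), followed by Ctsd and Gusb (0.85), which lie in different panels, and Cd68 and Gusb (0.79). Npc2 had an r between -0.07 and 0.22 with the other 6 over the 36 mice. By genotype its r ran from -0.51 to 0.22 in M28L mice and from 0.16 to 0.41 in 5xFAD mice. Npc2 rests on 30 to 126 counts per mouse, and the part of counting error in its r was not tested. Within the 12 P522R mice Ctsd had an r of 0.99 with Cd68 and 0.96 with Gusb, within the 12 M28L mice 0.89 and 0.55, and within the 12 5xFAD mice 0.88 and 0.59. The points of each pair share a mouse, and within a panel a scaling constant. For genes that vary most in P522R mice, those mice weigh most in any r over the 36 mice, here and in the matches below. Such an r need not hold within each genotype: Ctsd with Ctsl had 0.75 over the 36 mice and -0.01 within M28L mice. Among 1084 other genes with a mean log2 level of 5 or more, those most like each member in the same sense were Fcrls, C1qc and either Gfap or C1qa for Ctsd and Cd68 (r = 0.95, 0.91 and 0.91 for Ctsd with Fcrls, Gfap and C1qc; 0.91, 0.90 and 0.89 for Cd68 with Fcrls, C1qc and C1qa). For Gusb they were Fcrls, Cst7 and C1qc (0.86, 0.85 and 0.83), for Ctsl Lgmn and Tyrobp were among them (0.82 each), and for Man2b1 Csf1r, Clu and Axl (0.91, 0.84 and 0.82). For Ctsb they were Lamp1, P2ry13 and Sparc (0.89, 0.86 and 0.84), and for Npc2 the best matches, Serpinb6a, Prpf31 and Panx1, reached 0.59, 0.59 and 0.57. The median r over all genes searched lay between 0.07 and 0.15 for the 7 members. Lgmn encodes a lysosomal protease and Lamp1 a lysosomal membrane protein. Fcrls, Csf1r and P2ry13 are genes that microglia express strongly, C1qa and C1qc encode complement subunits, and Gfap is an astrocyte gene.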

How the data were processed

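Per the labels' protocols, total cortical RNA (PureLink extraction) was run on NanoString panels. The deposited values are log2 expression with both panels of a mouse joined in its column, and the sources used here do not give their normalization. The 251 of 1517 rows without a gene name were dropped, and 1266 genes remain. On the linear scale 100.0% of values were whole multiples of a step per mouse and panel within 0.05 counts, which gave back counts for describing depth; all tests used the deposited log2 values, with no pseudocount.

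The model in limma 3.58.1 (R 4.3.3) had a mean for each of the 6 groups, with 36 mice sharing a spread per gene and eBayes with trend, checked on simulated mice. Tests were two-sided, with Benjamini-Hochberg adjustment across the 1266 genes. Differences are those of log2 values, with 95% intervals. The 7 members, the gene and marker lists and the tests were chosen with earlier results of these data known. The 7 members were named throughout, with the 3 smallest p of each lysosomal list per genotype comparison and, for each member, the 3 most correlated genes; microglia markers and Npc1 were named after their values were seen. Mice were told apart by their label numbers; M28L females 14_F1 and 14_F8 share the number 14 and were kept as 2 mice. Alternatives were other scalings, a filter at a mean log2 of 5, a pseudocount of 20, other variance models, subsets of mice and a block for the index number. In 22 pairs of mice that share an index, deviations correlated between -0.48 and 0.29 (median -0.07), so the index was not taken to pair mice. Promoter sequences are RefSeq's, on GRCm38.p6. The gene Plcg2 was not analysed here, and a few genes that the naming rule selects are not reported here.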

Additional observations from a re-analysis of the deposited data

Results flagged for a closer look

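With 6 mice a group, each gene and group was examined for a lowest or highest mouse far from the others, meaning a gap to the nearest mouse above 0.625 of the group's range. Of 42 combinations 3 met this, and chance gives about 1 in 20. Ctsb lay at 11.61 in M28L female 12, with the next mouse at 11.94, and at 11.71 in 5xFAD female 1180, with the next at 12.06. Ctsd lay at 13.53 in M28L female 20, with the next at 13.77. Without 5xFAD female 1180 the Ctsb difference between M28L and 5xFAD mice was -0.19 and passed (limma adjusted p = 0.0108), and without M28L female 12 Ctsb was no longer called between P522R and M28L mice (0.11, adjusted p = 0.0642 in limma).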

How the results depend on the processing

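Of the 7 genes, 5 were called between M28L and 5xFAD mice, and 3 when only M28L mice with an index of 7 to 9 were kept. With that subset 88 of all 1266 genes were called. Between P522R and 5xFAD mice 4 were called, against 2 with each panel centred separately and 2 in a fit that ignored sex. Over all genes these fits gave 828, 848 and 572 calls. Between P522R and M28L mice 7 were called, against 4 with housekeeping centring, beside 856 and 762 of all genes. For P522R by sex 0 were called, against 1 with median centring and 4 with housekeeping centring, where 258 and 533 of all genes were called. Leaving out a mouse gave 4 to 6, 3 to 4 and 5 to 7 called in the 3 genotype comparisons, 4 to 6 for F against M and 0 to 0 for both interactions. Housekeeping centring turned Ctsl to -0.026 (P522R against 5xFAD) and Ctsb to -0.042 (P522R against M28L), and in males Ctsd to -0.31 and Ctsl to -0.016 (P522R against 5xFAD) and Ctsb to -0.26 and Gusb to -0.28 (P522R against M28L). For F against M, Ctsb turned to 0.071 with median centring, 0.0020 with panels centred separately, 0.034 with quantile normalization and 0.038 with housekeeping centring. Gusb turned to 0.19, 0.33 and 0.21 under the first 3 of these, and Man2b1 to 0.048 with panels centred separately. The cause was not tested. Over all genes, M28L against 5xFAD gave 130 calls, against 30 ignoring sex and 77 with M28L mice of index 1 to 3. F against M gave 1094, against 629, 693 and 676 with panel-wise, quantile and housekeeping centring, and P522R by sex 264, against 533 with housekeeping centring. With the index number as a replicate block 4, 3 and 5 members were called in the 3 genotype comparisons. Over all genes that block gave 97, 765 and 755 calls, so the 3 and 5 are no result about these genes as a group. Ctsl was then not called between M28L and 5xFAD mice (-0.32, adjusted p = 0.0559 in limma), nor Gusb between P522R and 5xFAD mice (-0.22, adjusted p = 0.0894). The block could not be fitted to F against M, and 1 of 22 pairs with the same index correlated over 0.1. Npc2 rests on 30 to 126 counts per mouse.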
